A study of Mus musculus with 4 samples.

Results

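The genes described here are the cytochrome P450 genes of the mouse, taken as every gene whose symbol is Cyp followed by a number, a letter and a number. Of 23185 genes with a named probe set on the arrays, 91 met this rule, and they fall into 37 subfamilies. The study measured RNA of 4 populations of mouse cells on Affymetrix arrays, with 1 array for each. The cells of the first array were club cells of adult lung, freshly isolated and not cultured (Day0). The second held club cells kept for 3 weeks in medium with doxycycline (3W+Dox, which the labels call Club-iPL cells), and the third held such cells after 2 further weeks without the drug (3W+Dox+2W-Dox, called withdrawn cells below). The fourth held Club-iPS cells, pluripotent stem cells induced from club cells. The labels name neither a transgene under control of doxycycline nor the strain, age, number or pooling of the mice, nor a sort or gate. Since no array of club cells kept in culture without the drug was used here, effects of culture and of doxycycline cannot be told apart. Withdrawn cells also spent 2 weeks longer in culture than the 3W+Dox cells. Between these arrays, effects of drug withdrawal and of further time in culture cannot be told apart either.

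Cytochrome P450 enzymes are haem proteins that insert an oxygen atom into small molecules, using electrons handed over by partner proteins. Families 1 to 3 act on drugs, pollutants, arachidonic acid and other small molecules, family 4 hydroxylates fatty acids and their derivatives at the chain end, and other families make or break down sterols, bile acids, steroid hormones, vitamin D and retinoic acid. Club cells of the mouse airway are known for their high P450 content, which makes them a target of inhaled compounds such as naphthalene that P450 enzymes turn into reactive products.

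Signals are log2 values that the authors made with RMA, a method that corrects background, equalises the distributions of the arrays and summarises the probes of a gene. A difference of 1 unit is 2-fold. Counted genes are those whose 2 signals in a comparison differ by at least 2 units (4-fold) and whose brighter signal reaches 6.67, the overall median. Genes that reach this limit are called bright and the others dim. With 1 array per population there is no replicate spread, so no p-value is given and no difference below has a replicate check. The number of arrays limits the precision. Where the dimmer signal is near the array background, the size of a fold is approximate. In RNA from mixed cells, fewer cells of a type and less RNA per cell cannot be told apart.

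The labelled cell type was set against markers of lung cells. All 11 club cell markers were at or above 6.67 at Day0, but so were all 11 ciliated and all 10 alveolar type 2 cell markers. Fibroblast markers had a median signal of 11.94 (range 5.58 to 13.57) at 3W+Dox, against 5.98 (range 4.15 to 8.31) at Day0, with 11 of 12 counted as higher. Leukocyte and macrophage markers had a median of 9.29 at 3W+Dox, against 6.45 at Day0, with 9 of 11 counted as higher. Of the club and ciliated markers, 6 of 11 and 10 of 11 were counted as lower at 3W+Dox. In iPS cells 7 of 8 pluripotency markers lay at or above 6.67, and 11 of 12 fibroblast markers did so too. The part of these shifts in the P450 differences below was not tested.

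Promoters of 4 genes are shown first, chosen after the signals had been seen. Each is the 300 bases from 250 before to 50 after the start, from RefSeq (GRCm38.p6), 5′ to 3′. Cyp2f2 is the naphthalene-activating P450 of mouse club cells, Cyp2b10 and Cyp2b23 are relatives in a single gene cluster whose signals differed from Day0 in opposite directions in iPS cells, and Cyp4f15 had the largest loss among the 91 genes at 3W+Dox. Capitals mark CACTTG, the core of NKX2-type sites, in Cyp2f2 (there on the opposite strand), TTGCNNAA, a C/EBP-type site, in the 2 Cyp2b genes, and CCAAT, the CCAAT box, in Cyp4f15 (opposite strand).
Cyp2f2 (chr7:27119705-27120004, plus strand): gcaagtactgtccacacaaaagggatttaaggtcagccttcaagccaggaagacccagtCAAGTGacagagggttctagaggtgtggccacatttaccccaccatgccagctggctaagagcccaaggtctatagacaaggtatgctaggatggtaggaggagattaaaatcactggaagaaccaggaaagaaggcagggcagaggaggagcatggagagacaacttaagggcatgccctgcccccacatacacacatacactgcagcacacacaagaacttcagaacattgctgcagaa
Cyp2b10 (chr7:25897408-25897707, plus strand): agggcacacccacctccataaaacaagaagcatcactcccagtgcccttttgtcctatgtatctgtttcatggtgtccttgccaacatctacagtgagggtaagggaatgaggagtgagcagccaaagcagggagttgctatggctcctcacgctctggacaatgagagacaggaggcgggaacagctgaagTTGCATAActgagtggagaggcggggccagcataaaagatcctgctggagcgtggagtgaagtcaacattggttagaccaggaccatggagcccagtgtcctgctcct
Cyp2b23 (chr7:26686381-26686680, minus strand): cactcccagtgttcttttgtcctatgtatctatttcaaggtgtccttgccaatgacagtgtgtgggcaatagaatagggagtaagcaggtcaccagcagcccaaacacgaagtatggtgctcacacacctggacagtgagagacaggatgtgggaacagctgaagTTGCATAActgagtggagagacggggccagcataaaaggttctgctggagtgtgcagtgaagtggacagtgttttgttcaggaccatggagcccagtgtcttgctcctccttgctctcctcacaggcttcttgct
Cyp4f15 (chr17:32685409-32685708, plus strand): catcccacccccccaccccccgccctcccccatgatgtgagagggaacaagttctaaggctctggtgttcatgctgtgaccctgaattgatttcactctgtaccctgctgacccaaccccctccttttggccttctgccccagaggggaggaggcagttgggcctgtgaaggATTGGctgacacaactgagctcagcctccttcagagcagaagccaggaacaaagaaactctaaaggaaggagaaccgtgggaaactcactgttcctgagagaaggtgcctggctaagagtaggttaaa

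Over the best local alignment of 281 columns, the promoters of Cyp2b10 and Cyp2b23 were 80.1% identical. Counted from the annotated gene start, the TTGCATAA begins at position -58 in Cyp2b10 and at -85 in Cyp2b23. These starts do not match in sequence, since the shared bases atggagcccagtgtc begin at the start of Cyp2b23 but after the start of Cyp2b10. Counted from these shared bases, the TTGCATAA lies equally far upstream in both genes. On these arrays Cyp2b23 read 7.67 in iPS cells, against 4.71 at Day0, while Cyp2b10 read 4.55 in iPS cells, against 12.77 at Day0. The 2 genes therefore gave opposite differences, 2.96 for Cyp2b23 and -8.21 for Cyp2b10, with similar sequence in this window. Such similarity is not particular to this pair. The Cyp2b10 window was 79.6% identical to that of Cyp2b19 over 255 columns, and 74.6% to those of Cyp2b9 and Cyp2b13 over 307. Those relatives were dim on every array and differed by -1.79 (Cyp2b19), -1.01 (Cyp2b9) and -0.11 (Cyp2b13) between iPS cells and Day0. Of the 91 genes, 70 had a promoter in the table, 6 of them with several windows. A P450 gene was scored if any of its windows matched, which can raise its share, whereas the shares set beside it are of single windows. Searched on both strands, TTGCNNAA was found in 22.9% of the 70 genes and in 10.8% of all 32851 windows, CACTTG in 20.0% against 13.6%, and CCAAT in 47.1% against 37.4%. TATAAA, the TATA box, was found in 41.4% against 13.6%, and GCGTG, the core to which the aryl hydrocarbon receptor binds, in 21.4% against 32.4%. Matches of different motifs can overlap, and each motif was counted on its own. A match is a description of the letters and not evidence of binding.

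Most P450 genes were dim in these cells. At Day0, 23 of the 91 genes lay at or above 6.67, which is 25.3%, against 50.4% of all named genes. At 3W+Dox it was 21 genes (23.1%, against 51.5% of all named genes), in withdrawn cells 19 (20.9%, against 52.5%) and in iPS cells 14 (15.4%, against 51.1%). On at least 1 array 27 genes passed this limit (29.7%, against 60.9%), from 20 of the 37 subfamilies, and 64 genes passed it on none. All 15 genes of the Cyp2c subfamily, whose members are prominent in liver and gut, lay between 2.16 and 5.93 on the 4 arrays. The other subfamilies with no bright gene were Cyp1a, Cyp2e, Cyp2g, Cyp2t, Cyp2w, Cyp4x, Cyp7a, Cyp8b, Cyp11a, Cyp11b, Cyp17a, Cyp24a, Cyp26a, Cyp26c, Cyp27a and Cyp27b. They include Cyp1a1 and Cyp1a2, the classical targets of the aryl hydrocarbon receptor, Cyp2e1, the ethanol-oxidising P450, and Cyp7a1, the rate-limiting enzyme of bile acid synthesis. Elsewhere 8 of 9 Cyp2d, 6 of 7 Cyp3a, 5 of 7 Cyp2j, 4 of 5 Cyp4a, 4 of 9 Cyp4f, 3 of 5 Cyp2b and 1 of 3 Cyp2a genes were dim on every array. The dim genes differed by -2.68 to 0.76 between 3W+Dox and Day0, 61 of 64 of them by less than 2-fold. Dim signals carry no firm order, and near-identical relatives within Cyp2a, Cyp2c, Cyp2d, Cyp3a and Cyp4a may share probes.

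After 3 weeks with doxycycline, 6 P450 genes were counted as lower than at Day0 and 1 as higher. The lower ones are 6.59% of the 91 genes, against 2.88% of all named genes, and the higher one is 1.10%, against 4.31% of all named genes. The median difference of the 91 genes was -0.16, beside -0.09 for all named genes. Most of the 91 genes, 64 (70.3%, against 39.1% of all named genes), were dim on every array, so this median says little about the bright ones. The 6 lower genes were Cyp4f15, Cyp2b10, Cyp4b1, Cyp2a4, Cyp39a1 and Cyp2r1, and the gene counted as higher was Cyp4a10. At 2-fold, 6 genes were higher (6.59%, against 8.67% of all named genes), with Cyp1b1, Cyp21a1, Cyp26b1, Cyp4f39 and Cyp7b1 added.

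**Figure D1:**
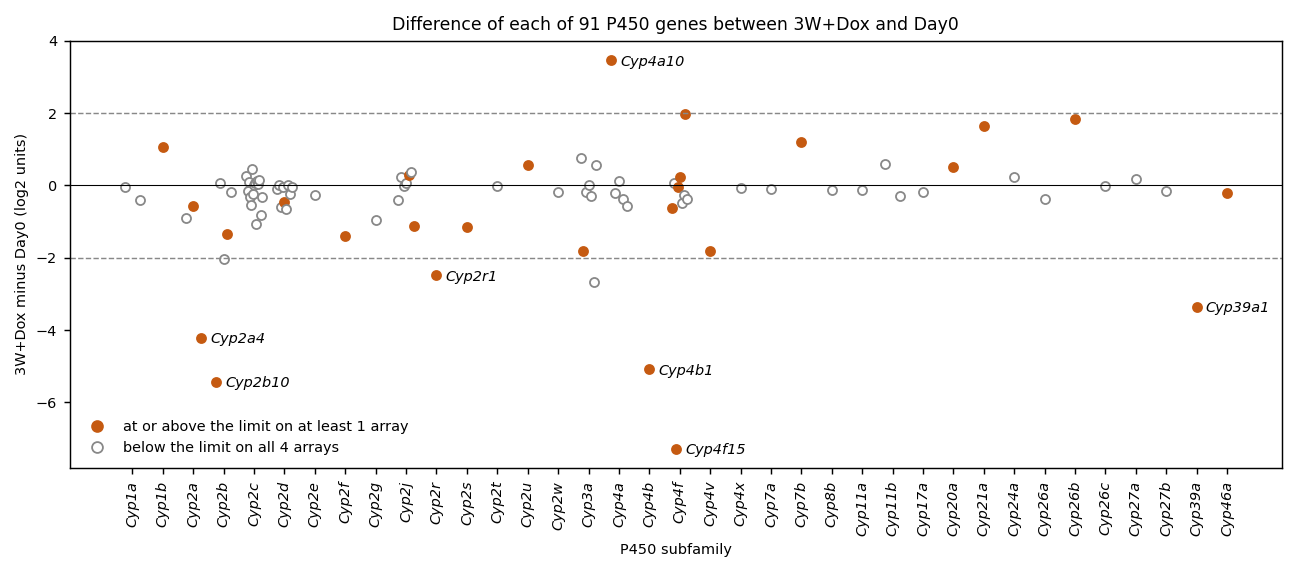
Difference in log2 units between 3W+Dox and Day0 for each of the 91 P450 genes (points), by subfamily. Filled points are genes at or above the limit of 6.67 on at least 1 array, open points are dim on all 4, dashed lines mark 4-fold, and the 6 genes counted as lower and Cyp4a10, counted as higher, are named.

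Among families 1 to 3, 3 of 57 genes were counted as lower at 3W+Dox and 0 as higher, beside 2.88% and 4.31% of all named genes. Cyp2b10 (Entrez gene 13088), which oxidises drugs and in liver is induced through the receptor CAR, read 12.77 (Day0), 7.33 (3W+Dox), 8.52 (withdrawn) and 4.55 (iPS), with 3W+Dox 43.4-fold below Day0. Every culture was below Day0, and the signal after withdrawal lay between the 3W+Dox and Day0 signals. Cyp2a4 (Entrez gene 13086), a steroid hydroxylase, read 7.86 (Day0), 3.65 (3W+Dox), 3.20 (withdrawn) and 3.40 (iPS). It was dim in all cultures, and its 18.5-fold difference at 3W+Dox was not undone after withdrawal. Whether the probe set reads Cyp2a4 alone was not tested. Cyp2r1 (Entrez gene 244209), a vitamin D hydroxylase, read 8.43 (Day0), 5.94 (3W+Dox), 6.03 (withdrawn) and 5.10 (iPS), and withdrawn cells differed from 3W+Dox by 0.08.

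Cyp2f2 (Entrez gene 13107) kept a high signal in both cultures of the doxycycline series. It read 13.83 (Day0), 12.44 (3W+Dox), 13.45 (withdrawn) and 7.86 (iPS). Its difference of -1.39 at 3W+Dox was 2.62-fold and not counted as lower. The Day0 signal is the highest value on that array (13.83), and how far saturation shortened the difference was not tested. Scgb1a1, the abundant secretoglobin that club cells release, read 13.52, 12.62, 13.04 and 4.18 on the same arrays. Other club cell markers differed more, with 6 of 11 counted as lower at 3W+Dox and Bpifa1, a secreted airway protein, at -6.61. Cyp2s1 (Entrez gene 74134), a P450 of epithelia at body surfaces, read 12.70 (Day0), 11.54 (3W+Dox), 11.38 (withdrawn) and 8.85 (iPS). Unlike that of Cyp2f2, its signal after withdrawal was no nearer to Day0 than at 3W+Dox.

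**Figure D2:**
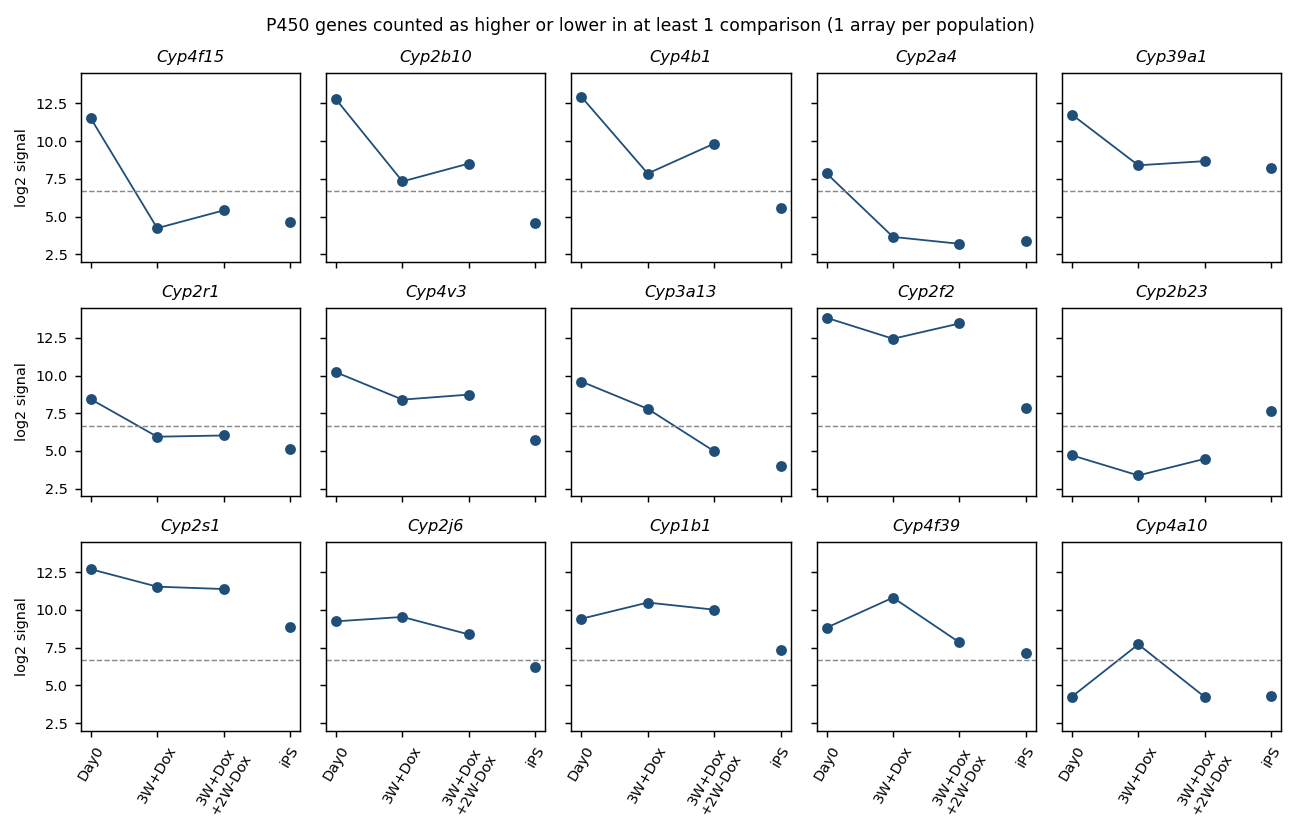
Log2 signal (vertical axis) of the 15 P450 genes counted as higher or lower in at least 1 comparison, on the 4 arrays, 1 point per array. Lines join the doxycycline series, the dashed line is the limit of 6.67, and the panels run from the most negative (Cyp4f15, -7.28) to the most positive difference (Cyp4a10, 3.47) between 3W+Dox and Day0.

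The other genes of families 1 to 3 were not counted at 3W+Dox. Cyp1b1 (Entrez gene 13078), which oxidises oestrogens and polycyclic hydrocarbons and is a target of the aryl hydrocarbon receptor, read 9.41 (Day0), 10.49 (3W+Dox), 10.01 (withdrawn) and 7.36 (iPS). Its 3W+Dox signal was 2.11-fold above Day0, on an array on which fibroblast markers were higher by a median of 5.76. Cyp2j6 (Entrez gene 13110), of a subfamily that makes epoxides of arachidonic acid, read 9.24 (Day0), 9.53 (3W+Dox), 8.37 (withdrawn) and 6.24 (iPS). Its relative Cyp2j9 read 7.25 (Day0), 6.14 (3W+Dox), 6.09 (withdrawn) and 5.81 (iPS), so the 2 bright Cyp2j genes differed in sign at 3W+Dox. Cyp2u1, a fatty acid hydroxylase, Cyp2d22 and Cyp2a22 stayed within 2-fold of Day0 on all arrays, with differences between -0.82 (Cyp2a22 in iPS cells) and 0.81 (Cyp2u1 in withdrawn cells). Cyp2b19 and Cyp3a57, dim everywhere, differed by -2.04 and -2.68 at 3W+Dox and were not counted because their Day0 signals, 6.15 and 5.59, lie below the limit.

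In family 4, 2 of 17 genes were counted as lower at 3W+Dox and 1 as higher, beside the same 2.88% and 4.31%. Cyp4f15 (Entrez gene 106648), of a subfamily that hydroxylates leukotrienes and other fatty acids, read 11.52 (Day0), 4.23 (3W+Dox), 5.41 (withdrawn) and 4.67 (iPS). Its signal was bright at Day0 and dim in every culture, and at 3W+Dox it was 156-fold below Day0. Cyp4b1 (Entrez gene 13120), known in lung for turning the plant toxin ipomeanol into a reactive product, read 12.94 (Day0), 7.85 (3W+Dox), 9.84 (withdrawn) and 5.60 (iPS). All cultures lay below Day0, with 3W+Dox 34.1-fold below it. Cyp4v3 (Entrez gene 102294), a fatty acid hydroxylase, read 10.22 (Day0), 8.40 (3W+Dox), 8.74 (withdrawn) and 5.71 (iPS).

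A pair of family 4 genes had their highest signal on doxycycline. Cyp4a10 (Entrez gene 13117), a fatty acid hydroxylase that in liver is a target of the receptor Ppara, read 4.25 (Day0), 7.71 (3W+Dox), 4.23 (withdrawn) and 4.30 (iPS). It was bright on the 3W+Dox array alone, 11.1-fold above Day0, and dim on the other 3. Cyp4f39 (Entrez gene 320997), which hydroxylates the very long fatty acids of the skin barrier, read 8.82 (Day0), 10.81 (3W+Dox), 7.84 (withdrawn) and 7.12 (iPS). Its difference of 1.99 at 3W+Dox was just short of the limit of 2. The nearest values inside the limit were those of Cyp2r1 (-2.49), and other values just short of it were those of Cyp26b1 (1.84), Cyp4v3 (-1.81) and Cyp3a13 (-1.81). Cyp4f13, Cyp4f16 and Cyp4f17 were bright on all 4 arrays, between 8.01 and 10.47, and differed by less than 2-fold between 3W+Dox and Day0.

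The sterol, steroid and signal-removing families had few bright members. Cyp39a1 (Entrez gene 56050), which hydroxylates an oxysterol on the way to bile acids, read 11.76 (Day0), 8.40 (3W+Dox), 8.67 (withdrawn) and 8.20 (iPS). The 3 cultures were alike and all at least 8-fold below Day0. Cyp7b1, also an oxysterol hydroxylase, read 7.41 (Day0), 8.60 (3W+Dox), 8.79 (withdrawn) and 6.70 (iPS). Its signal lay above Day0 at 3W+Dox and in withdrawn cells, and below Day0 in iPS cells. Cyp26b1, which breaks down retinoic acid, read 6.85 (Day0), 8.69 (3W+Dox), 8.28 (withdrawn) and 7.09 (iPS), so it was higher in both doxycycline cultures by 1.84 and 1.44 without reaching the limit of 2. Cyp21a1, a steroid hydroxylase of the adrenal, read 5.07 (Day0), 6.72 (3W+Dox), 5.60 (withdrawn) and 5.38 (iPS). Cyp46a1, the neuronal cholesterol hydroxylase, and Cyp20a1, whose substrate is not established, stayed within 2-fold of Day0 on all arrays.

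After doxycycline was withdrawn, no P450 gene was counted as higher than at 3W+Dox (0 of 91, against 0.302% of all named genes) and 3 were counted as lower, which is 3.30%, against 0.470% of all named genes. With no replicates, no p-value stands behind the count of 0, and after a second quantile normalization or centring of each array it was 1, with Cyp4b1 just past the limit. A count of 0 in 91 genes is close to the share of all named genes. At 2-fold, 5 genes were lower (5.49%, against 1.88% of all named genes), with Cyp21a1 and Cyp2j6 added. At 2-fold, 3 genes were higher in withdrawn cells than at 3W+Dox (3.30%, against 1.45% of all named genes), namely Cyp4b1 by 1.99, Cyp2b10 by 1.19 and Cyp2f2 by 1.01. Cyp4f15 and Cyp2b23 also gave higher values, by 1.18 and 1.10, but both of their signals in that comparison were dim. On the same arrays ciliated cell markers were higher by a median of 1.73 and club cell markers by 0.42 in withdrawn cells, and their part in the P450 differences was not tested.

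The 3 genes lower after withdrawal were Cyp4a10 (-3.49), Cyp4f39 (-2.97) and Cyp3a13 (-2.81). Cyp4a10 was back at its Day0 signal to within 0.02, and Cyp4f39 lay 0.98 below Day0. Cyp3a13 (Entrez gene 13113), the mouse 3A gene that was bright here and whose enzyme oxidises drugs, read 9.60 (Day0), 7.79 (3W+Dox), 4.98 (withdrawn) and 4.02 (iPS). The withdrawn cells lay further from Day0 than the cells on doxycycline. Among the 11 genes at least 2-fold lower at 3W+Dox, they also did so, by less, for Cyp2a4, Cyp2s1 and Cyp2j9. At 3W+Dox Cyp3a13 was 3.50-fold below Day0, and in withdrawn cells its difference from Day0 was -4.62.

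**Figure D3:**
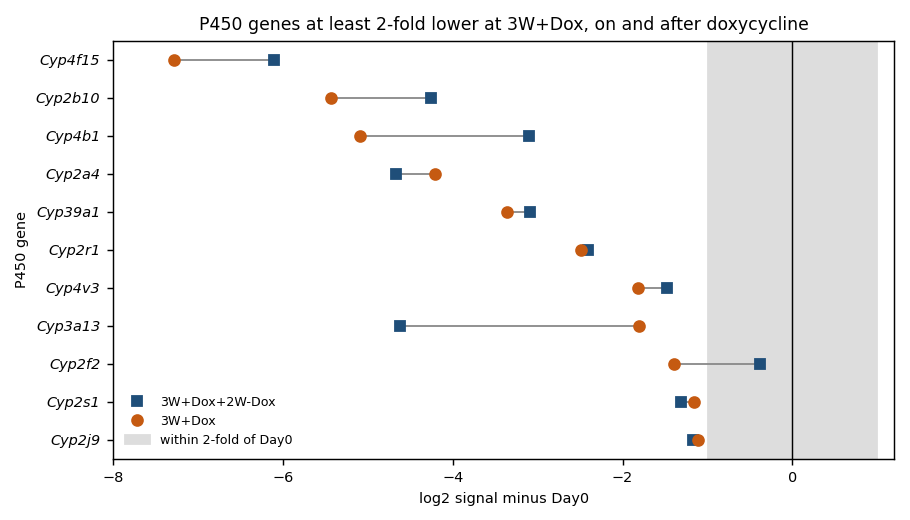
Log2 signal minus Day0 (horizontal axis) in withdrawn cells (squares) and at 3W+Dox (circles) for the 11 P450 genes at least 2-fold lower at 3W+Dox. Cyp2f2 alone lies within 2-fold of Day0 (grey band) after withdrawal, measured against a Day0 signal at the top of its array, and Cyp3a13 lies further from Day0 than at 3W+Dox.

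The return toward Day0 differed among the lost genes. Of the 6 genes counted as lower on doxycycline, 0 had come within 2-fold of Day0 in withdrawn cells, where all 6 were still counted as lower than Day0. Over all 667 named genes counted as lower on doxycycline, 31 (4.65%) had come within 2-fold of Day0 and 338 (50.7%) were still counted as lower. The share of the log2 difference undone was largest for Cyp4b1 (1.99 of 5.09 units) and otherwise 21.8% for Cyp2b10, 16.2% for Cyp4f15, 8.17% for Cyp39a1, 3.34% for Cyp2r1 and -10.8% for Cyp2a4, where a negative value means further from Day0. Their median was 12.2%, beside 25.5% over the 667 genes. Signals near background carry part of these shares. With all values raised to at least the 25th percentile (5.07), Cyp4f15 had 5.34% undone, Cyp2a4 0%, and the median was 6.76%, beside 24.2% over the 667 genes. Among the 11 genes at least 2-fold lower at 3W+Dox (12.1%, against 7.52% of all named genes), Cyp2f2 had 72.8% of its smaller difference undone, measured against a Day0 signal at the top of its array, and Cyp4v3 had 18.4%, while Cyp2s1 and Cyp2j9 lay slightly further from Day0 than at 3W+Dox. Set against Day0, 7 P450 genes were counted as lower in withdrawn cells (7.69%, against 1.85% of all named genes) and 0 as higher (against 4.05%). These were the 6 lost genes and Cyp3a13.

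In iPS cells 12 P450 genes were counted as lower than at Day0, which is 13.2% of the 91 genes, against 5.90% of all named genes, and 1 was counted as higher (1.10%, against 4.89%). The median difference of the 91 genes was -0.21, beside 0.00 for all named genes. At 2-fold, 15 genes were lower (16.5%, against 12.4%) and 1 was higher (1.10%, against 13.1%). The largest differences were those of Cyp2b10 (-8.21), Cyp4b1 (-7.35) and Cyp4f15 (-6.85). Cyp2f2, which had stayed bright at 3W+Dox, was 62.7-fold lower in iPS cells than at Day0, and Cyp3a13 differed by -5.58. Cyp4v3 (-4.50), Cyp2a4 (-4.46), Cyp2s1 (-3.85), Cyp39a1 (-3.56), Cyp2r1 (-3.33), Cyp2j6 (6.24 in iPS cells, against 9.24 at Day0) and Cyp1b1 (-2.05) complete the list. Cyp2f2, Cyp2s1, Cyp39a1 and Cyp1b1 were still at or above 6.67 in iPS cells, whereas the other 8 were dim there.

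Cyp2b23 (Entrez gene 243881) was the P450 gene counted as higher in iPS cells. It read 4.71 (Day0), 3.38 (3W+Dox), 4.48 (withdrawn) and 7.67 (iPS), 7.76-fold above Day0, and was bright on the iPS array alone. The other 4 measured Cyp2b genes were all dim in iPS cells. Since relatives of this subfamily are similar in sequence, whether the probe set reads Cyp2b23 alone was not tested.

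Neighbouring P450 genes differed in the size and sign of their differences. Runs of P450 genes with at most 4 other protein-coding genes between them were taken from the RefSeq gene order (GRCm38.p6), and 7 such clusters held at least 3 of the 91 genes. In the cluster of the Cyp4f genes, differences at 3W+Dox ran from -7.28 for Cyp4f15 to 1.99 for Cyp4f39, while their neighbours Cyp4f17, Cyp4f16, Cyp4f37, Cyp4f40 and Cyp4f14 lay between -0.38 and 0.23 and Cyp4f13 at -0.62. The cluster of the Cyp4a genes, Cyp4b1 and Cyp4x1 held Cyp4b1 at -5.09 and Cyp4a10 at 3.47, with the other 5 genes of the symbol rule between -0.57 and 0.12. Cyp4a12b, which lies in the same cluster but outside that rule, differed by -2.60. In the cluster that runs from Cyp2s1 to Cyp2t4, 4 of 12 genes were counted as lower in iPS cells (Cyp2s1, Cyp2b10, Cyp2a4 and Cyp2f2) and Cyp2b23 as higher, beside 5.90% and 4.89% of all named genes. All 14 genes of the Cyp2c cluster and all 6 genes of the symbol rule in the Cyp3a cluster were dim, so none of them could be counted. Cyp3a13, counted as lower in iPS cells (-5.58), lies outside the Cyp3a cluster. The Cyp2d cluster, with 1 bright gene, had no gene counted at 3W+Dox or in iPS cells.

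**Figure D4:**
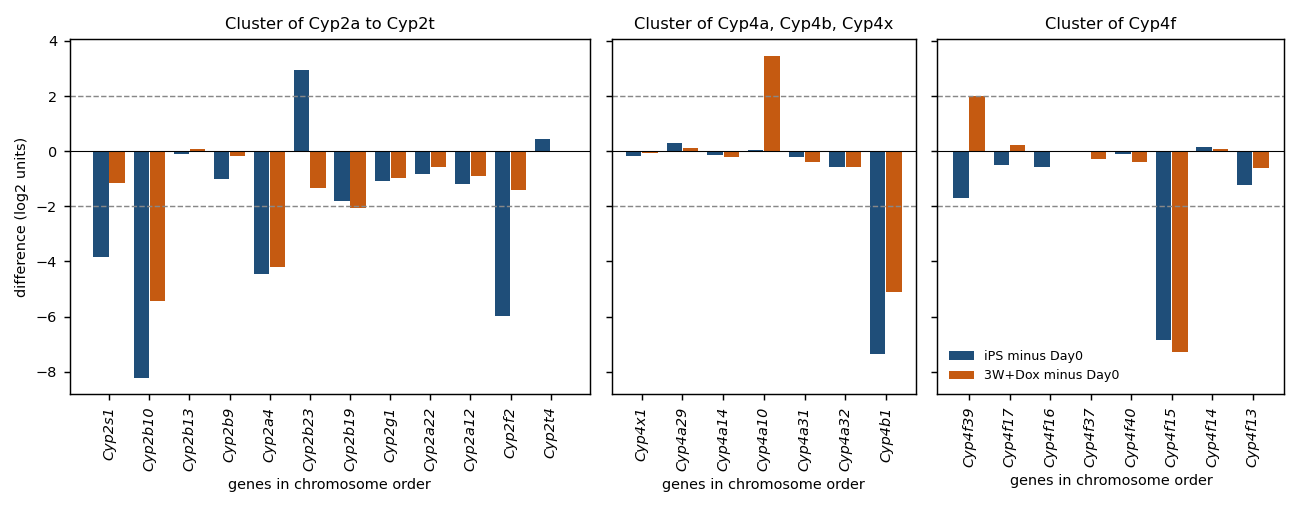
Differences in log2 units of iPS minus Day0 (blue) and 3W+Dox minus Day0 (orange) for the genes of the symbol rule in 3 P450 clusters, in chromosome order. P450 genes outside the rule, such as Cyp4a12b, are not drawn. Dashed lines mark 4-fold. Large bars stand beside bars near 0, and Cyp4a10 and Cyp4b1 have opposite signs at 3W+Dox.

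The other genes of the P450 system were read from lists of electron donors and binding partners, haem enzymes, and receptors and transcription factors, of which 45 of 49 listed names were measured. At 3W+Dox 2 of these 45 were counted as lower and 0 as higher, shares near or below the 2.88% and 4.31% of all named genes. Alas1, the rate-limiting enzyme of haem synthesis, read 12.69 (Day0), 10.27 (3W+Dox), 10.33 (withdrawn) and 9.74 (iPS). The withdrawn signal lay within 0.07 of that at 3W+Dox, and all 3 cultures were below Day0. The other 11 measured genes of haem synthesis and breakdown were not counted in any comparison. Ppara, the receptor that in liver drives Cyp4a genes, read 7.87 (Day0), 5.43 (3W+Dox), 5.61 (withdrawn) and 5.43 (iPS). At 3W+Dox its relatives Ppard and Pparg read 10.62 and 9.04. The part of these receptors in the Cyp4a10 signal was not tested.

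Of 7 electron donors and binding partners 0 were counted at 3W+Dox, and 1 was counted as lower in iPS cells. Cyb5a, cytochrome b5, which passes electrons to P450 enzymes, read 12.92 (Day0), 11.41 (3W+Dox), 11.34 (withdrawn) and 10.18 (iPS). Fdx1, the ferredoxin of mitochondrial P450 enzymes, read 9.04 (Day0), 7.32 (3W+Dox), 7.37 (withdrawn) and 7.22 (iPS). Of the 7, 6 were lower at 3W+Dox by 0.38 to 1.72 and Fdx2 lay within 0.01 of Day0. In withdrawn cells all 7 lay within 0.31 of their 3W+Dox signals.

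Of 26 receptors and transcription factors, 6 were counted as lower and 1 as higher in iPS cells than at Day0, beside 5.90% and 4.89% of all named genes. Pparg, a fatty acid receptor, differed by -4.57, Cebpa, a C/EBP factor of lung and liver epithelium, by -4.44, Rarb, a retinoic acid receptor, by -4.42, Vdr, the vitamin D receptor, by -2.96, Ppara by -2.44 and Nr1h3, an oxysterol receptor, by -2.10. Nr5a2, a nuclear receptor of liver and of pluripotent cells, was higher by 3.08. Cebpa read 10.58 (Day0), 8.92 (3W+Dox), 9.41 (withdrawn) and 6.14 (iPS). Ahr, the aryl hydrocarbon receptor, read 10.70, 10.69, 10.70 and 8.87 on the same arrays, within 0.01 of each other on the 3 arrays of the doxycycline series, while its repressor Ahrr read 5.59, 6.97, 6.29 and 5.92. Nr1i2 and Nr1i3, the drug receptors PXR and CAR that drive Cyp3a and Cyp2b genes in liver, were dim on all 4 arrays.

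**Figure D5:**
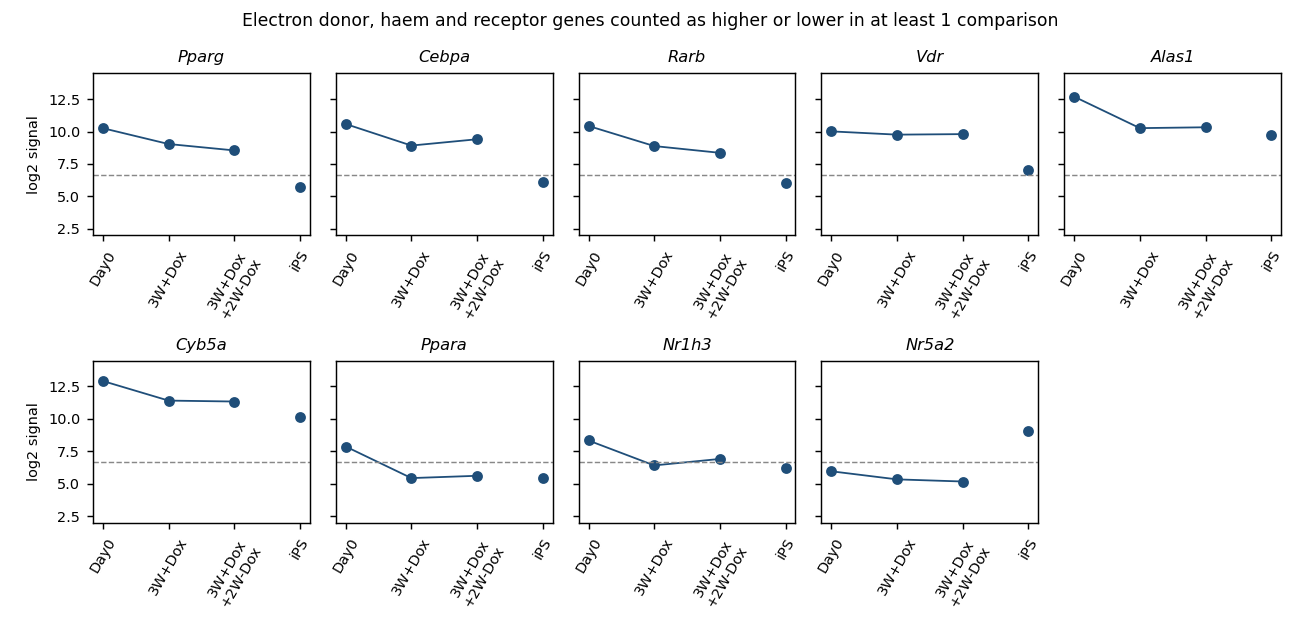
Log2 signal (vertical axis) of the 9 genes of the electron donor, haem and receptor lists counted as higher or lower in at least 1 comparison, on the 4 arrays, 1 point per array. Lines join the doxycycline series and the dashed line is the limit of 6.67. Alas1 and Ppara are at similar signals in all 3 cultures, and Nr5a2 is bright in iPS cells.

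P450 enzymes under other names add to these patterns. Tbxas1, the thromboxane synthase of platelets and macrophages, read 5.29 (Day0), 7.56 (3W+Dox), 7.84 (withdrawn) and 5.69 (iPS), and Adgre1, a macrophage receptor, read 5.72, 9.78, 9.88 and 5.75 on the same arrays. Ptgis, the prostacyclin synthase, read 7.26 (Day0), 9.79 (3W+Dox), 9.89 (withdrawn) and 8.96 (iPS), and Col1a1, a collagen chain of fibroblasts, read 6.73, 12.84, 12.53 and 9.76. Which cells of the cultures carried these transcripts cannot be read from the arrays. Cyp4a12b, a fatty acid hydroxylase outside the symbol rule, read 9.09 (Day0), 6.49 (3W+Dox), 6.79 (withdrawn) and 5.68 (iPS), and Cyp51, which removes a methyl group in cholesterol synthesis, stayed between 8.37 and 9.04.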

How the data were processed

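RNA from 4 populations (RNeasy kit, Ambion WT kit, biotin, per the labels' protocols) gave 1 array each. The deposited table holds log2 signals (1.70 to 13.85), made by the authors with RMA. The submitters' processing notes name affy and R 3.0.2 for this. No source used here gives the probe set annotation's build. Of 25206 probe sets, 23185 had a symbol in the platform annotation and 2021, among them genes that the rule would take, were not analysed here. Groups came from the sample titles. Values were used as deposited. Differences and counts were computed with Python 3.11.15, numpy 2.4.6 and pandas 2.3.3. The counting code was run on simulated data with large differences put into bright genes. Simulated differences near the 4-fold limit were not tried, so this checks the code and not the counts near that limit. With 1 array per population no test was run. Members and lists were chosen with earlier results of these data known, and motifs, printed promoters and clusters after the signals were seen. Named genes are members counted in a comparison, other bright members and counted list genes, with relatives and controls for contrast. Markers of alveolar type 1, basal, smooth muscle and endothelial cells had 1, 0, 0 and 1 genes lower and 1, 0, 5 and 0 higher at 3W+Dox than at Day0. Alternatives were other thresholds, brightness limits, scalings and a floor.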

Additional observations from a re-analysis of the deposited data

How the results depend on the processing

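The counts over all 91 genes in the 4 comparisons and the return count were repeated under 7 other settings, those of withdrawn cells against Day0 by a choice made after the data were seen, and the return count also with at least 50% of the difference undone. With a 2-fold threshold, 11 P450 genes were lower and 6 higher at 3W+Dox than at Day0, 5 were lower and 3 higher in withdrawn cells than at 3W+Dox, 11 were lower and 2 higher in withdrawn cells than at Day0, and 1 of the 11 lower genes, Cyp2f2, had returned. With an 8-fold threshold, 1 gene was lower after withdrawal and 0 were higher in iPS cells. With the 75th percentile of all values (8.82) as the brightness limit, 0 genes were higher at 3W+Dox, 1 was lower after withdrawal and 0 were higher in iPS cells. A second quantile normalization and centring of each array each gave 1 gene higher after withdrawal, Cyp4b1, at 2.06 and 2.03. The other values of these counts were within 1.5 times those reported. Counts for families, clusters and lists were not repeated. Of 60 differences of the 15 named genes, 30 were counted and none of these changed sign under any of the 7 settings, while Cyp1b1 in iPS cells was -1.99 after the second normalization. Cyp2a4, Cyp2r1, Cyp2b23, Cyp3a13 and Cyp4a10 each lost counts under the stricter brightness limit. No paired analysis was possible because each population has 1 array. Signals near background limit some folds. With a floor at the 25th percentile, also applied to the shares undone by a choice made after the data were seen, the folds at 3W+Dox were 6.94 for Cyp2a4 (18.5 without it), 87.3 for Cyp4f15 (156) and 6.27 for Cyp4a10 (11.1), and Cyp3a13 in iPS cells differed by -4.53 (-5.58). All of these were still counted.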
